A study of Mus musculus with 6 samples.

Results

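The RNA of 48 DNA replication and S-phase genes was compared between circulating tumour cells (CTC) and primary tumour cells (PT) of the mouse mammary tumour 2208L, which is passed from mouse to mouse as a transplant. The genes were chosen by symbol for their known role, not for a measured value, and all 48 were found among the 54532 genes of the deposited table. The direction of the list was, however, already known from earlier results of these data. CTC stands for 3 libraries of tumour cells that were propagated from the peripheral blood of tumour-bearing mice, by steps the labels do not describe. PT stands for 3 libraries made from the dissociated primary tumours of the same mice after tumour cells had been enriched, so that CTC 1 and PT 1, CTC 2 and PT 2, and CTC 3 and PT 3 each belong to 1 mouse. All mice were Balb/c and untreated, and neither age nor a transgene is given in the labels. Both groups come from 1 tumour line, and propagation in CTC against dissociation and enrichment in PT cannot be told apart from the site the cells came from.

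Replication begins when the origin recognition complex, with CDC6 and CDT1, loads the MCM2-7 helicase onto origins, a step called licensing. At the start of S phase the kinase CDC7-DBF4 and cyclin E with its kinase switch the loaded helicase on, CDC45 and GINS join it, and polymerases held to the template by the PCNA clamp copy both strands. Most of these genes are classic targets of E2F transcription factors, which the retinoblastoma protein holds back until cyclin-dependent kinases release them, and in mammary tumours their summed RNA is widely read as a sign of proliferation.

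Promoter windows of 40 of the 48 genes were in the RefSeq table of GRCm38.p6, each running from 250 bases before to 50 bases after a transcription start. They were searched on both strands for the E2F-type words TTTCCCGC, TTTGGCGC, TTTCGCGC and TTTGCCGC, and 16 of the 40 genes (40%) held at least 1 of them. The same words were in the windows of 474 of 9918 genes tested in the comparison below (4.78%) and of 704 of all 27025 genes in the table (2.61%). The windows of 6 genes that differ in the number and place of the words are shown as the 200 bases before the start, in the direction of transcription, with matched words in capitals.
Mcm6: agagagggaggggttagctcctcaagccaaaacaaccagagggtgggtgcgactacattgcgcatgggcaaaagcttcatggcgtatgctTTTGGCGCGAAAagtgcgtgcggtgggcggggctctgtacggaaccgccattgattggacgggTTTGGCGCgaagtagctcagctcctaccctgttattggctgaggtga
Mcm5: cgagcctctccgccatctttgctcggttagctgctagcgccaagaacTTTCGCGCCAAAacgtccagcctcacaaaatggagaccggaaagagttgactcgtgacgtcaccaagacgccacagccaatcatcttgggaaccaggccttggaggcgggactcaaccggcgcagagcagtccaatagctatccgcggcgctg
Orc1: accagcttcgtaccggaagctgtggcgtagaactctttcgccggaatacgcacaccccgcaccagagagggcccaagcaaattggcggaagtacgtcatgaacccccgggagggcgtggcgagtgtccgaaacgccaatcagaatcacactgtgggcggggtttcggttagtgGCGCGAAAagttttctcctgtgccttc
Cdc6: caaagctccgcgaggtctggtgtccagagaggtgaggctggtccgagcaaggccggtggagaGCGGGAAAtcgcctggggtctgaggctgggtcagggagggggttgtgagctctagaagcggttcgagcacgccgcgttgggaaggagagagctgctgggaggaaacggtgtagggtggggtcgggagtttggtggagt
Gins3: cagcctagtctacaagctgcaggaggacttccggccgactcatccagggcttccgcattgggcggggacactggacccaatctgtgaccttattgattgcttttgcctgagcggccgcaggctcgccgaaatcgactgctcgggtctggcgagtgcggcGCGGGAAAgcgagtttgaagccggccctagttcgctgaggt
Uhrf1: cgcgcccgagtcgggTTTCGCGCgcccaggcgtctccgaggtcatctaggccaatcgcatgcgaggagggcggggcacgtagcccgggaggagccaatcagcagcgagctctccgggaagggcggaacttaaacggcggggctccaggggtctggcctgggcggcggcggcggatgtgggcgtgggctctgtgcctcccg
These lie at chr1:128359706-128359905 on the minus strand for Mcm6 and, all on the plus strand, at chr8:75109309-75109508 for Mcm5, chr4:108579254-108579453 for Orc1, chr11:98907951-98908150 for Cdc6, chr8:95633359-95633558 for Gins3 and chr17:56304113-56304312 for Uhrf1. In the Mcm6 window the run TTTGGCGCGAAA reads as TTTGGCGC in one direction and TTTCGCGC in the other, 110 bases before the start, and a separate TTTGGCGC follows 47 bases before it. In the Mcm5 window TTTCGCGCCAAA is a like overlap of both words, 153 bases before the start. In Lig1 and Pold1, whose RNA levels turn out to be those furthest below PT in CTC, the word lies just after the start, at base 27 of Lig1 and base 40 of Pold1, and 30 bases around each are shown.
Lig1: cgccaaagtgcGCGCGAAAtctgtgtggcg
Pold1: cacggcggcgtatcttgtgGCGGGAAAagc
Lig1 is at chr7:13278841-13278870 on the plus strand and Pold1 at chr7:44548766-44548795 on the minus strand. A word in this place was not particular to Lig1 and Pold1. Cdt1, Mcm3, Mcm7, Pole2, Dnmt1, Rfc3 and E2f2 also had a word at or after a start. Their log2 fold changes, CTC over PT, ran from -0.32 for Mcm7 to 0.34 for E2f2. Lig1, Uhrf1, Mcm7, Dnmt1 and E2f2 also have windows without a word. The stretches shown for Uhrf1, Cdc6, Lig1 and Pold1 lie wholly inside the genes as deposited. Those genes begin at 56303321, 98907801 and 13277283 on the plus strand and, for Pold1, at 44548849 on the minus strand. A match says that these letters are in the window, not that a factor binds there.

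The windows were also searched for CCAAT, the letters bound by NF-Y, and for TTTGAA or TTCGAA, the letters of the cell cycle homology region (CHR) through which mitotic genes are controlled. CCAAT was in the windows of 24 of the 40 replication genes (60.0%), against 17 of 23 mitosis and spindle genes (73.9%) and 43.4% of genes tested. The CHR-type letters were in 11 of 40 replication genes (27.5%), against 16 of 23 mitosis genes (69.6%) and 16.2% of genes tested. E2F-type words were in 1 of the 23 mitosis genes (4.35%). The median GC content of the windows was 60.7% for the replication genes and for the genes tested alike.

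**Figure D1:**
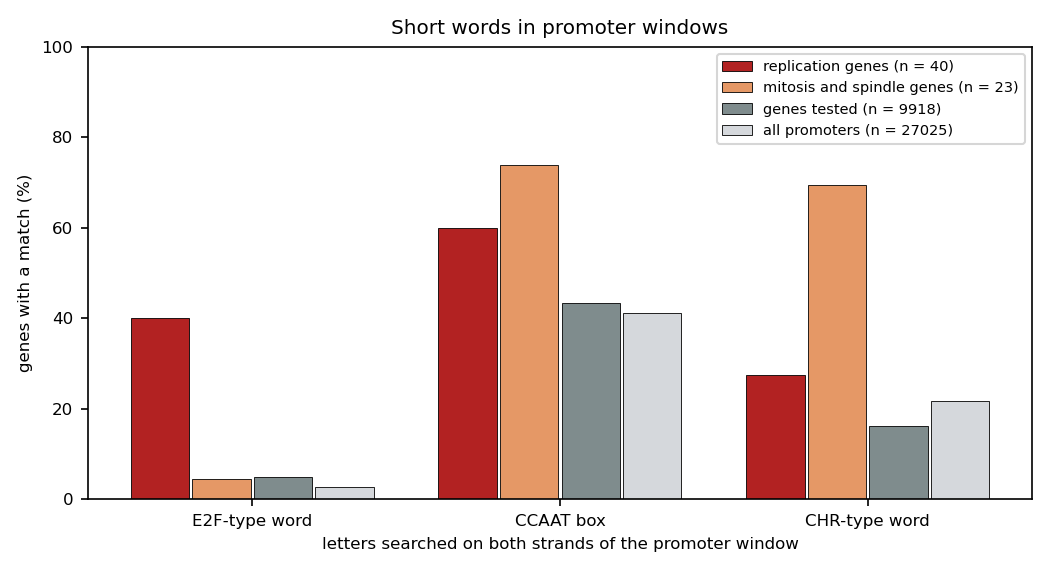
Share of genes (%) whose promoter window holds an E2F-type word, CCAAT or a CHR-type word, for the replication genes, the mitosis and spindle genes, the genes tested and all genes of the table. Replication genes have the highest bar for E2F-type words (40%), and mitosis genes have the highest bars for CCAAT (73.9%) and the CHR-type word (69.6%).

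The deposited table gave 23951093 to 27897320 counts per CTC library and 23845953 to 27371166 per PT library, and the replication genes took 0.562% to 0.690% of the counts in CTC and 0.642% to 0.811% in PT. Each of the 48 genes had between 256 and 15355 counts in every library, far above the filter on low counts. Levels are given as CPM, that is, counts relative to a library total adjusted by the TMM method. Summed epithelial markers (Epcam, Krt8, Krt18, Krt7, Cdh1, Cldn3 and Cldn7) were at 8099, 5203 and 2845 CPM in CTC 1 to 3 and 7257, 7003 and 5535 CPM in PT 1 to 3. Markers of other cells were low: leukocyte markers summed to at most 2.58 CPM, lymphocyte markers to at most 2.65, endothelial markers to at most 1.88 and globin and other erythroid markers to at most 0.625 CPM in any library. Macrophage markers summed to 10.1, 23.5 and 3.79 CPM in CTC and 2.95, 4.76 and 1.16 CPM in PT, and fibroblast markers to 8.91, 51.5 and 164 CPM in CTC and 72.9, 17.6 and 38.3 CPM in PT. Neutrophil markers summed to 0.746 to 26.4 CPM in CTC and 4.23 to 18.1 CPM in PT. A single gene made up most of the highest macrophage, fibroblast and neutrophil sum. Csf1r was at 20.3 CPM in CTC 2, and Col3a1 and S100a8 were at 124.6 and 25.3 CPM in CTC 3. In CTC 3 Col1a1 and S100a9, of the same lists, were at 0.430 and 0.509 CPM. Laptm5, Cd52, Ly6g, Adgre1, C1qa, C1qb, Lum and Cd2, which mark leukocytes, macrophages, fibroblasts and lymphocytes, had 0 counts in every library. Whether such cells were present, and their part in the results below, was not tested.

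None of the 48 genes passed the test between CTC and PT by any of the tools run, and in the main edgeR fit no other gene did. Without the filter on low counts, edgeR called 78 lower and 121 higher genes, none of them among the 48. With edgeR's quasi-likelihood test, 0 of 13874 genes (0%) had a Benjamini-Hochberg adjusted p under 0.05, 459 lower and 460 higher genes had an unadjusted p under 0.05, and the lowest adjusted p among the replication genes was 0.726. DESeq2 called 0 replication genes, against 0.283% of all genes lower and 0.241% higher in CTC (87 genes in all). With the mouse as a block it called 0 replication genes, against 0.973% lower and 0.864% higher (253 genes in all), and limma-voom called 0 genes. The macrophage marker Csf1r was called by DESeq2 with this block (adjusted p 0.000875) and by edgeR without the filter (adjusted p 0.0358). As a description, 34 of the 48 genes had a mean level that was lower in CTC and 14 a higher one. Lower genes made up 70.8% of the 48 and 45.9% of all 13874 genes tested, of which 54.1% were higher. The median log2 fold change, CTC over PT, was -0.17 for the replication genes and 0.05 for all genes tested. In bulk RNA, fewer cycling cells and less RNA per cell cannot be told apart.

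For 7 of the 48 genes every CTC library lay below every PT library, which is 14.6% of them, against 6.16% of all genes tested. They were Lig1, Pold1, Gins4, E2f1, Uhrf1, Rfc2 and Ccne2. No replication gene had every CTC library above every PT library, a pattern that 5.95% of all genes tested showed. Among the 48 genes 3 had an unadjusted p under 0.05 with a lower level in CTC (6.25%, against 3.31% of all genes tested), and 0 had one with a higher level (3.32% of all genes tested). With only 2 libraries in a group more genes separate by construction, so each count is given with its own share over all genes. The count of 7 was 19 without CTC 2 (39.6%, against 12.3% of all genes tested), 13 without PT 1 (27.1%, against 9.42%) and 12 without PT 2 (25%, against 9.51%). It was 10 without PT 3 (20.8%, against 14.1%), 8 without CTC 3 (16.7%, against 14.4%) and 7 without CTC 1 (14.6%, against 7.60%). The count of 0 above was 5 without CTC 3 (16% of all genes tested), 4 without PT 3 (15.1%) and 1 without PT 1 (9.57%). Without both libraries of mouse 3, 11 of the 48 (22.9%) lay below, against 23.1% of all genes tested. The median of -0.17 became -0.34 without CTC 2 and -0.08 without CTC 3. These genes had a median within-group SD of 0.35 in log2 CPM, and the 95% interval of a fold change reached a median of 0.72 to either side, which is 1.65-fold.

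**Figure D2:**
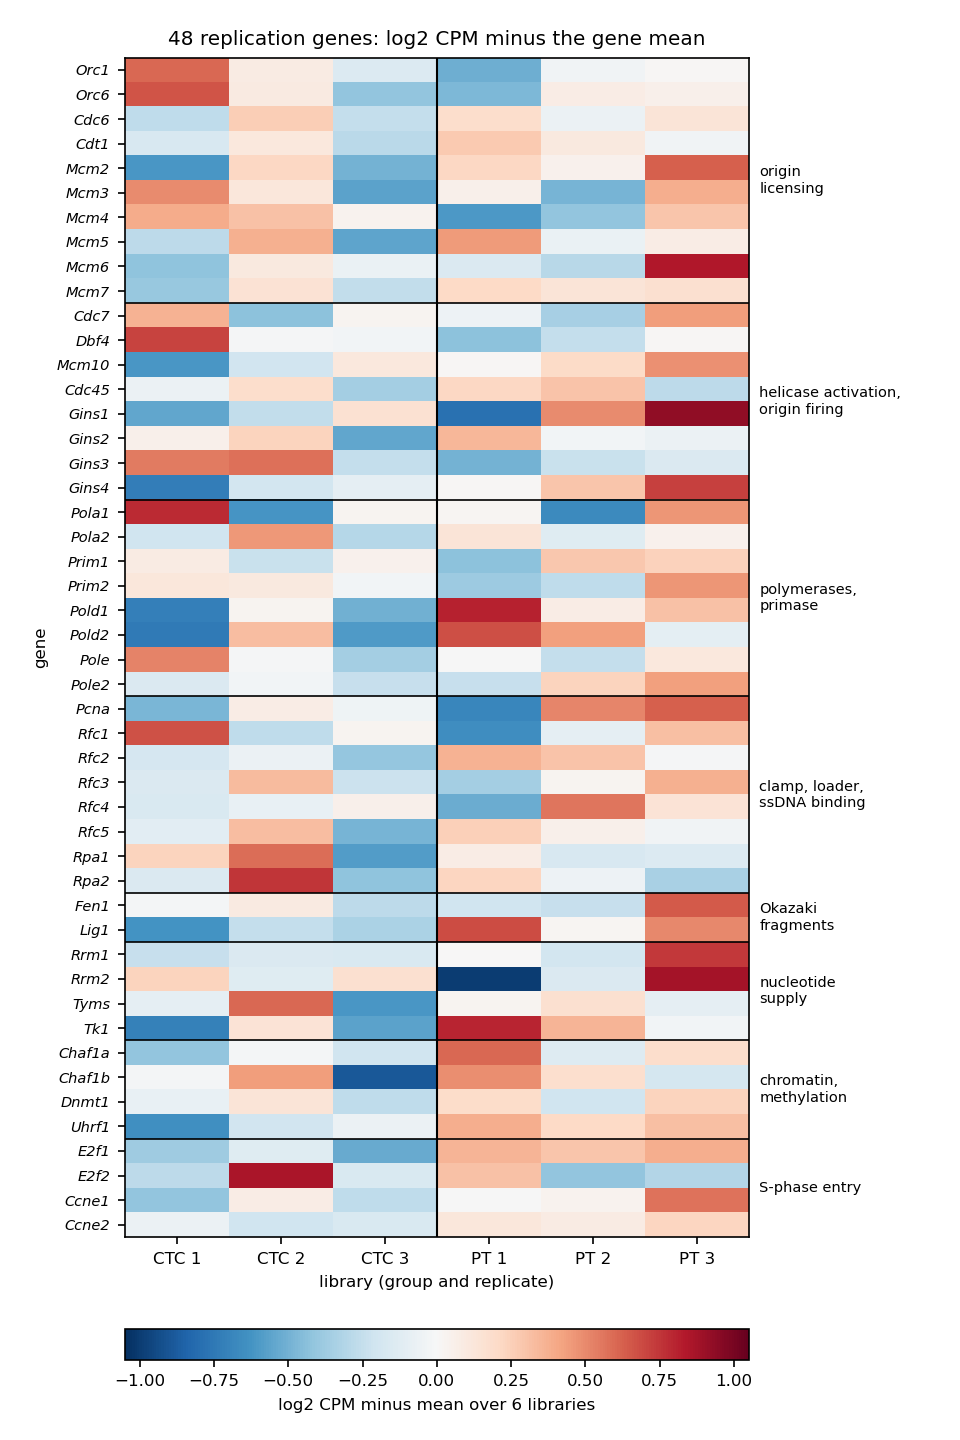
Log2 CPM of each of the 48 genes (rows, grouped by role) minus the mean of the gene over the 6 libraries (columns, CTC left of the black line and PT right of it). CTC 3 holds the lowest value of 17 genes and the highest of 0, PT 3 the highest of 17 and the lowest of 0, and PT 1 is split, with the highest value of 12 genes and the lowest of 13.

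The direction was not the same in the 3 mice. In mouse 3, 47 of the 48 genes were lower in CTC than in PT (50.2% of all genes tested), with a median difference of -0.47 in log2 CPM, and the exception was E2f2 at 0.15. In mouse 1, 28 of 48 were lower (47.3% of all genes tested) with a median of -0.27, and the values ran from -1.53 for Pold1 to 1.32 for Rfc1. In mouse 2, 18 of 48 were lower (50.4% of all genes tested) with a median of 0.05. Over all genes tested the median difference was 0.08, -0.01 and -0.00 in mice 1, 2 and 3. In the same order the epithelial markers were lower in CTC for 2, 6 and 7 of 7 genes, and the part of this in the replication genes was not tested.

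In all, 11 genes were lower in CTC in all 3 matched pairs: Mcm10, Cdc45, Gins4, Pold1, Pold2, Rfc2, Lig1, Tk1, Uhrf1, E2f1 and Ccne2. Of all genes tested, 15.3% were. None of the 48 was higher in CTC in all 3 pairs, against 15.4% of all genes tested. With the mouse as a block in edgeR, 34 genes were lower, the median stayed at -0.17 and the lowest adjusted p was 0.766, for Gins4.

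**Figure D3:**
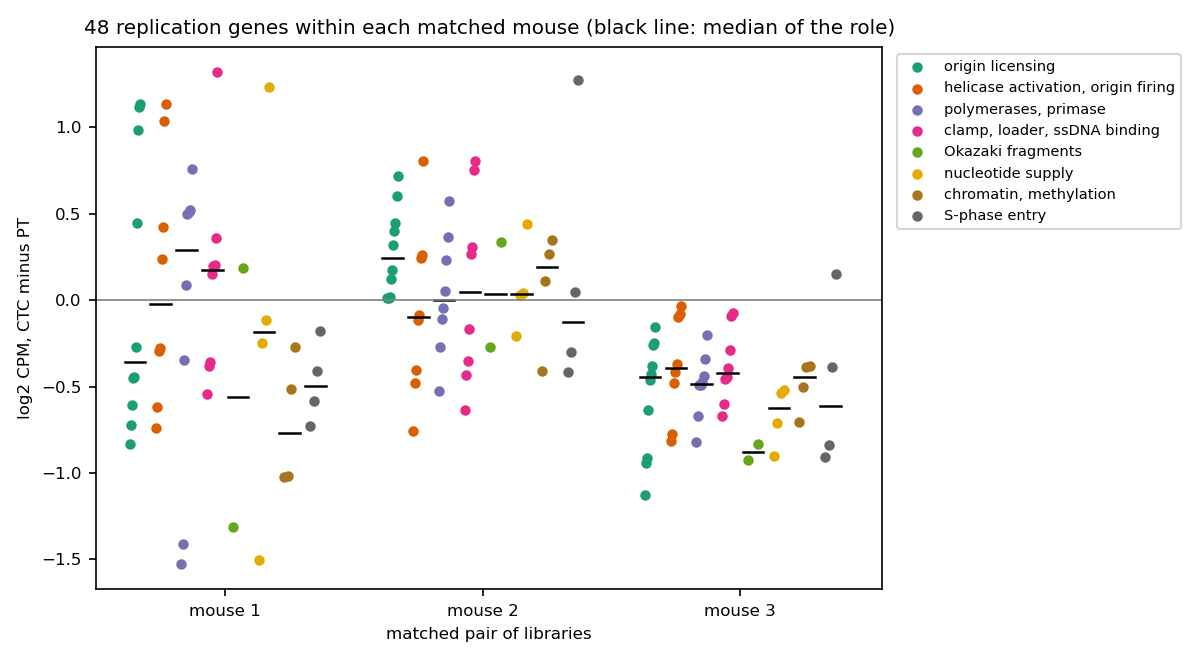
Difference in log2 CPM, CTC minus PT, for each of the 48 genes within each matched mouse, coloured by role, with a black line at the median of each role. Nearly all points of mouse 3 lie below 0 (47 of 48), those of mouse 1 spread from -1.53 to 1.32, and all 10 origin licensing genes of mouse 2 lie above 0.

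The 10 licensing genes differed in direction between mice: 6 were lower in CTC in mouse 1, 0 in mouse 2 and all 10 in mouse 3, with medians of -0.36, 0.25 and -0.45. In mouse 2 the differences of Cdt1 and Mcm7 were both 0.01. Orc1 and Orc6, subunits of the origin recognition complex, were at 38.4, 26.8 and 22.9 CPM and 94.4, 63.8 and 44.9 CPM in CTC 1 to 3, against 17.7, 24.6 and 25.5 CPM and 42.9, 62.9 and 62.0 CPM in PT 1 to 3. For both, CTC 1 was the highest and PT 1 the lowest library, and the groups overlapped. Cdc6, the ATPase that loads the helicase, had a log2 fold change of -0.16 (SE 0.25), and its partner Cdt1 one of -0.22 (SE 0.24).

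Within the MCM2-7 ring, the motor of the replicative helicase, the subunits did not share 1 pattern. Mcm2 was at 212, 377 and 229 CPM in CTC, against 378, 334 and 502 CPM in PT, and its log2 fold change was -0.57 (SE 0.32, adjusted p 0.727 in edgeR). Mcm4 (ENSMUSG00000022673; chromosome 16, 15623897 to 15637400, minus strand) was at 234, 221 and 184 CPM in CTC, against 118, 134 and 219.9 CPM in PT, and its log2 fold change was 0.44 (SE 0.31, adjusted p 0.757 in edgeR). In Mcm2 it was CTC 2 that reached into the PT range, and in Mcm4 it was PT 3 that reached into the CTC range. Mcm6 was at 486 CPM in PT 3 and between 202 and 291 CPM in the other 5 libraries. The remaining ring subunits had log2 fold changes of 0.06 for Mcm3, -0.27 for Mcm5 and -0.32 for Mcm7, with overlapping groups.

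Among the 8 genes of helicase activation and origin firing, 6 were lower in CTC. Gins4 (ENSMUSG00000031546; chromosome 8, 23226616 to 23237659, minus strand), a subunit of the GINS complex that joins CDC45 and the ring into the active helicase, was at 66.2, 96.01 and 103 CPM in CTC, against 111, 134 and 181 CPM in PT. All CTC libraries lay below all PT libraries, the means were 88.4 ± 19.4 CPM in CTC against 142 ± 35.6 CPM in PT (SD, n = 3 each), and the log2 fold change was -0.68 (SE 0.30, 95% interval -1.37 to 0.00, adjusted p 0.726 in edgeR). Gins3 (ENSMUSG00000031669; chromosome 8, 95633453 to 95645060, plus strand), another subunit of the same complex, had the largest positive fold change of the 48. It was at 27.7, 28.2 and 15.9 CPM in CTC, against 13.4, 16.1 and 17.1 CPM in PT, with a log2 fold change of 0.62 (SE 0.34, adjusted p 0.726 in edgeR), and CTC 3 lay inside the PT range.

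Dbf4 (ENSMUSG00000002297; chromosome 5, 8396973 to 8422716, minus strand), the activating subunit of the CDC7 kinase, was at 114, 69.2 and 68.4 CPM in CTC, against 51.8, 58.5 and 70.1 CPM in PT. CTC 1 stood above the other 5 libraries, which lay close together, and the log2 fold change was 0.48 (SE 0.30, adjusted p 0.735 in edgeR). Cdc7 itself had a log2 fold change of -0.03 (SE 0.36). Mcm10, which helps the helicase to open DNA, was lower in CTC in each mouse, at -0.62, -0.40 and -0.37 in log2 CPM for mice 1 to 3, and Cdc45 likewise, at -0.28, -0.11 and -0.08. The groups of both genes overlapped.

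Of the 8 polymerase and primase genes 5 were lower in CTC, and the polymerase delta genes led them. Pold1 (ENSMUSG00000038644; chromosome 7, 44532746 to 44548849, minus strand), the catalytic subunit of the lagging-strand polymerase, was at 65.0, 109.6 and 75.3 CPM in CTC, against 188, 113 and 133 CPM in PT. CTC 2 lay just under PT 2, with every CTC library below every PT library, and the means were 83.3 ± 23.3 CPM in CTC against 145 ± 38.7 CPM in PT (SD, n = 3 each). The log2 fold change was -0.80 (SE 0.31, 95% interval -1.52 to -0.07, unadjusted p 0.0354 and adjusted p 0.726 in edgeR), with pair differences of -1.53, -0.04 and -0.82. Pold2, its regulatory subunit, was at 187, 391 and 206 CPM in CTC, against 497, 421 and 290.0 CPM in PT, with CTC 2 inside the PT range.

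The genes of the other polymerases differed less between the groups. Pola1 and Pola2, the catalytic and regulatory subunits of the priming polymerase alpha, had log2 fold changes of 0.16 (SE 0.44) and -0.00 (SE 0.28). The primase genes Prim1 and Prim2 had -0.10 and 0.08, and the leading-strand polymerase genes Pole and Pole2 had 0.13 and -0.31. Pola1 spread widely within both groups, at 77.2, 29.2 and 45.8 CPM in CTC, against 45.5, 28.2 and 62.1 CPM in PT. For each of these genes the intervals included 0 and the groups overlapped.

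Of the clamp, clamp loader and single-strand binding genes, 5 of 8 were lower in CTC. Pcna (ENSMUSG00000027342; chromosome 2, 132249162 to 132253314, minus strand), the sliding clamp, was at 295, 436 and 400.5 CPM in CTC, against 257, 588 and 637 CPM in PT. The lowest and the highest libraries were both PT, and the log2 fold change was -0.39 (SE 0.38, adjusted p 0.811 in edgeR). Without PT 1 it was -0.69. Reads of Pcna and of copies of it elsewhere in the genome may be shared: Pcna-ps2 had 549 counts over the 6 libraries, against 64785 for Pcna.

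Rfc2 (ENSMUSG00000023104; chromosome 5, 134581366 to 134601805, plus strand), a small subunit of the clamp loader, was at 93.6, 102 and 80.0 CPM in CTC, against 136, 130.3 and 105 CPM in PT. The groups did not overlap, the means were 91.8 ± 11.1 CPM in CTC against 124 ± 16.6 CPM in PT (SD, n = 3 each), and the log2 fold change was -0.43 (SE 0.24, adjusted p 0.726 in edgeR). The other loader subunits overlapped between groups, with log2 fold changes of 0.29 for the large subunit Rfc1 and -0.04, -0.18 and -0.15 for Rfc3, Rfc4 and Rfc5. Rpa1 and Rpa2, which coat single-stranded DNA, were highest in CTC 2, at 283 and 135 CPM, and had log2 fold changes of 0.23 and 0.19.

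Lig1 (ENSMUSG00000056394; chromosome 7, 13277283 to 13311433, plus strand), the ligase that seals Okazaki fragments, had the largest negative fold change of the 48 genes. It was at 94.1, 122 and 115 CPM in CTC, against 234, 148 and 206 CPM in PT. The highest CTC library lay below the lowest PT library, and the means were 111 ± 14.7 CPM in CTC against 196 ± 43.9 CPM in PT (SD, n = 3 each). The log2 fold change was -0.82 (SE 0.27, 95% interval -1.45 to -0.19), with an unadjusted p of 0.0171 and an adjusted p of 0.726 in edgeR, 0.564 in DESeq2 and 0.329 in DESeq2 with the mouse as a block. Fen1, the flap nuclease of the same step, was at 12.9, 13.9 and 10.7 CPM in CTC, against 11.3, 10.99 and 20.4 CPM in PT, and PT 3 stood above the other 5 libraries. Fen1 overlaps Tmem258 on the other strand, which had 15629 counts against 2012 for Fen1 over the 6 libraries, and without a stated strand setting their reads cannot be told apart. In all, 10 of the 48 genes overlap a gene on the other strand that had at least 1000 counts: Orc6, Mcm7, Cdc45, Gins2, Rfc4, Rfc5, Fen1, Lig1, Chaf1a and Ccne2. For Lig1 it is Zswim9, with 1119 counts.

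Tk1 (ENSMUSG00000025574; chromosome 11, 117815526 to 117826092, minus strand), the thymidine kinase that salvages thymidine for DNA synthesis, was at 141, 254 and 155 CPM in CTC, against 399, 293 and 225 CPM in PT. It was lower in CTC in each mouse, but CTC 2 lay above PT 3, and the log2 fold change was -0.74 (SE 0.34, 95% interval -1.53 to 0.05, adjusted p 0.726 in edgeR). Rrm1 and Rrm2, the subunits of ribonucleotide reductase, spread unequally within PT. Rrm2 lay between 228 and 293 CPM over the CTC libraries and between 124 and 456 CPM over the PT libraries, with a log2 fold change of -0.01 (SE 0.45). Rrm1 was between 286 and 303 CPM in CTC and was at 339, 295 and 563 CPM in PT. Tyms, which makes thymidylate, had a log2 fold change of 0.02 (SE 0.34).

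All 4 genes of chromatin copying were lower in CTC on average. Uhrf1 (ENSMUSG00000001228; chromosome 17, 56303321 to 56323486, plus strand), which reads hemimethylated DNA behind the fork and recruits the maintenance methyltransferase, was at 151, 205 and 226 CPM in CTC, against 307, 272 and 294 CPM in PT. The groups did not overlap, the means were 194 ± 38.7 CPM in CTC against 291 ± 17.6 CPM in PT (SD, n = 3 each), and the log2 fold change was -0.59 (SE 0.26, 95% interval -1.18 to 0.01, adjusted p 0.726 in edgeR). Dnmt1, that methyltransferase, had a log2 fold change of -0.15 (SE 0.26). Chaf1a and Chaf1b, subunits of the histone chaperone CAF-1, had -0.46 and -0.24, and Chaf1b was lowest in CTC 3, at 59.0 CPM.

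Of the 4 regulators of S-phase entry, E2f1 and Ccne2 did not overlap between groups. E2f1 (ENSMUSG00000027490; chromosome 2, 154559407 to 154569892, minus strand), an activating E2F factor, was at 59.8, 70.9 and 53.6 CPM in CTC, against 99.0, 94.5 and 100.5 CPM in PT. The PT libraries lay within a narrow range and all CTC libraries under it, the means were 61.4 ± 8.74 CPM in CTC against 98.0 ± 3.11 CPM in PT (SD, n = 3 each), and the log2 fold change was -0.67 (SE 0.23, 95% interval -1.21 to -0.14, unadjusted p 0.0201, adjusted p 0.726 in edgeR). Its differences within mice 1 to 3 were -0.73, -0.41 and -0.91. E2f2 (ENSMUSG00000018983; chromosome 4, 136172394 to 136196057, plus strand), another activating E2F, was at 19.2, 42.1 and 20.9 CPM in CTC, against 28.7, 17.4 and 18.8 CPM in PT. CTC 2 alone stood high in CTC, and the log2 fold change of 0.34 (SE 0.41, adjusted p 0.835 in edgeR) became -0.12 without it.

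Ccne2 (ENSMUSG00000028212; chromosome 4, 11191351 to 11204779, plus strand), a cyclin E, was at 37.2, 33.6 and 34.9 CPM in CTC, against 42.2, 41.4 and 45.6 CPM in PT. The groups lay apart by a small step, with means of 35.2 ± 1.83 CPM in CTC against 43.1 ± 2.23 CPM in PT (SD, n = 3 each) and a log2 fold change of -0.29 (SE 0.24, adjusted p 0.787 in edgeR). It overlaps Ints8 on the other strand, which had 8480 counts over the 6 libraries. Ccne1, the other cyclin E, was at 32.2, 45.4 and 35.7 CPM in CTC, against 42.8, 44.0 and 63.8 CPM in PT, with a log2 fold change of -0.41 (SE 0.29).

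**Figure D4:**
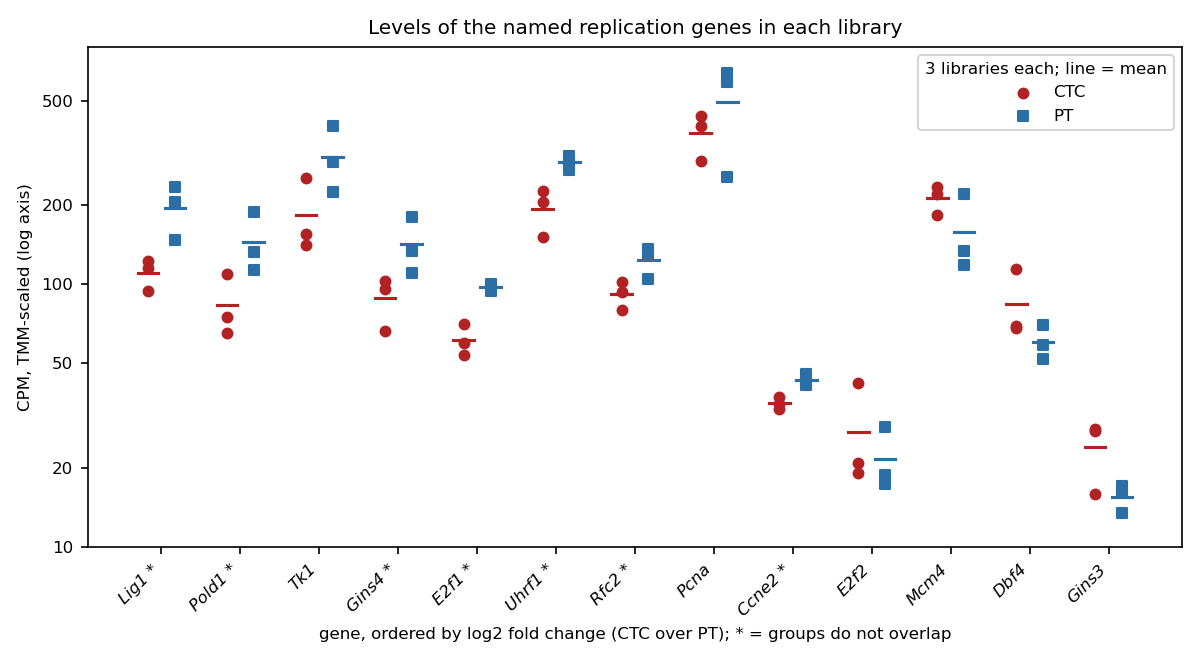
TMM-scaled CPM (log axis) of the 13 genes named by rule, in each CTC library (red circles) and each PT library (blue squares), with a short line at each mean. The 7 genes with an asterisk have all CTC circles below all PT squares; Gins3, Dbf4, Mcm4 and E2f2, on the right, have higher CTC means with overlapping points.

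Levels of different genes were compared per length, as FPKM, which is CPM divided by the deposited gene length in kilobases. Over the 6 libraries Pcna had the highest mean level of the 48, at 182 FPKM, and E2f2 the lowest, at 5.02 FPKM. The 6 ring subunits lay close together, between 48.7 FPKM for Mcm2 and 95.4 FPKM for Mcm3, a ratio of 1.96. The 4 GINS subunits did not: Gins4 averaged 85.3 FPKM, against 12.3 for Gins1, 9.62 for Gins2 and 7.28 for Gins3, so that the highest mean was 11.7 times the lowest. The wide ratios elsewhere were between Pold2 at 175 FPKM and Pold1 at 23.5 FPKM, a ratio of 7.46, and between Pola2 at 37.5 FPKM and Pola1 at 5.45 FPKM, a ratio of 6.89. A gene length covers all annotated exons of a gene, so these levels depend on that annotation.

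Summed over subunits, the ring was at 392, 466 and 316 FPKM in CTC, against 432, 354 and 524 FPKM in PT, and the groups overlapped. GINS, whose sum is mostly Gins4, was at 76.8, 102 and 101 FPKM in CTC, against 106, 131 and 171 FPKM in PT, with all CTC sums below all PT sums. Polymerase delta, whose sum is mostly Pold2, was at 112, 229 and 124 FPKM in CTC, against 301, 245 and 180.3 FPKM in PT, and ribonucleotide reductase at 132, 109.8 and 128 FPKM in CTC, against 75.7, 107 and 216 FPKM in PT. For polymerase delta only CTC 2 lay inside the PT range, and CTC 1 and CTC 3 lay below it. For ribonucleotide reductase all CTC sums lay inside the PT range.

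The base composition of the transcripts moved with the deviations of the genes in single libraries. Across the 48 genes, whose transcripts had a median GC content between 41.8% and 60.7%, the deviation from the gene mean correlated with GC content at r = -0.50, 0.39 and -0.62 in CTC 1 to 3 and at 0.71, 0.13 and -0.29 in PT 1 to 3. Over all 13862 genes with a GC value the coefficients had the same signs but were smaller, at -0.24, 0.17 and -0.16 in CTC and 0.33, 0.12 and -0.10 in PT. These are descriptions across genes of the same library, which are not independent replicates. In PT 1 the 12 genes at their highest there had a median GC content of 53.6% and the 13 at their lowest there one of 45.5%.

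**Figure D5:**
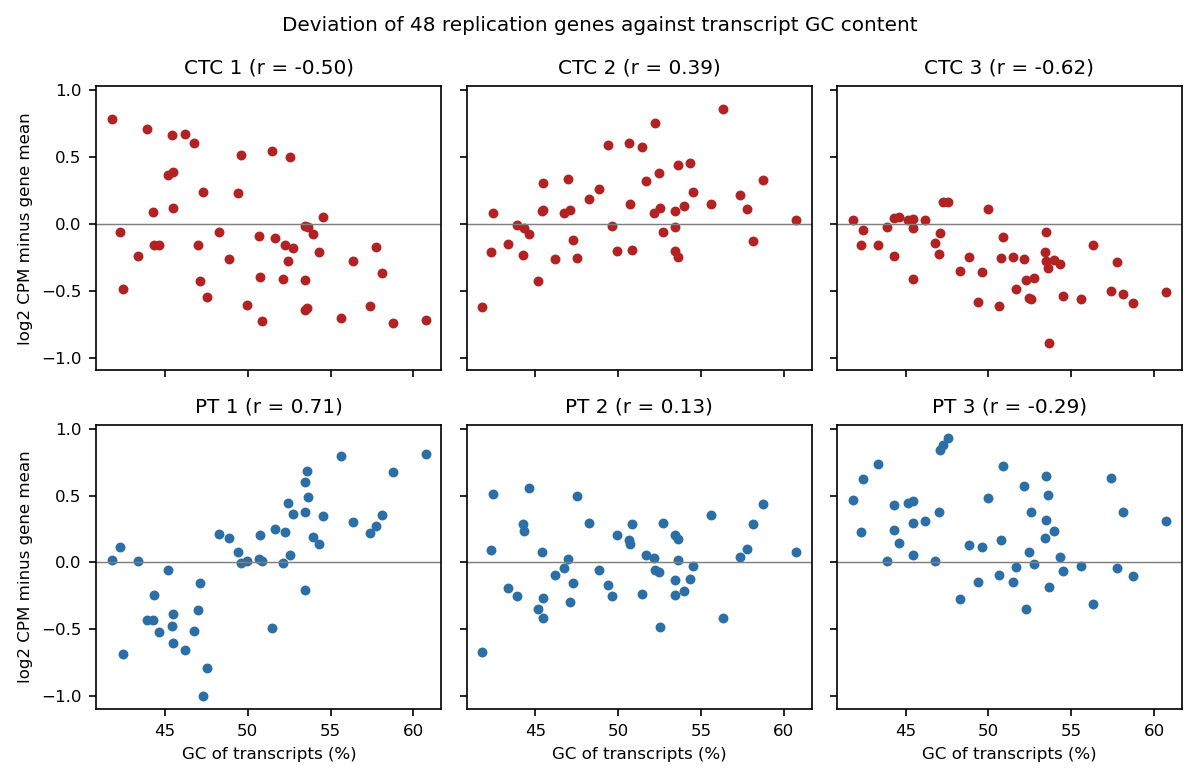
Log2 CPM of each of the 48 genes minus its mean over the 6 libraries, against the GC content (%) of its transcripts, in CTC libraries (top row, red) and PT libraries (bottom row, blue). The points rise with GC content in PT 1 (r = 0.71) and fall with it in CTC 3 (r = -0.62) and CTC 1 (r = -0.50).

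When the GC trend of each library was removed, an alternative added after seeing the data, 36 of the 48 genes were lower in CTC and the median log2 fold change was -0.24. In mice 1, 2 and 3, 33, 20 and 47 genes were then lower. All CTC libraries lay below all PT libraries for 10 genes, against 6.36% of all genes: Mcm7, Mcm10, Gins4, Prim1, Pole2, Rfc2, Lig1, Uhrf1, E2f1 and Ccne2. Of the 7 genes without the correction, 6 were among them, and Pold1 was not, with a log2 fold change of -0.53. Pold1 has the highest GC content of the 48 genes, 60.7%.

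Neighbouring genes on the chromosome were read beside each replication gene, as the median of the 10 tested genes on either side. Around Pold1 on chromosome 7 the neighbours had a median log2 fold change of -0.82, next to -0.80 for Pold1 itself, and in PT 1 they deviated by 0.86 from their own means, next to 0.81 for Pold1. Around Lig1, also on chromosome 7, the neighbours had -0.43, around Gins4 -0.51, around Mcm2 -0.40 and around E2f1 -0.34. For Uhrf1, Rfc2 and Ccne2 the neighbours had medians of -0.12, -0.10 and 0.32, so that for Ccne2 they lay on the other side of 0. Ccne2 was not alone in this. Gins2, Rfc4, Mcm5 and Pole2, also lower in CTC, had neighbours at 0.47, 0.27, 0.19 and 0.16. Rrm2 was at -0.999 in PT 1 and its neighbours on chromosome 12 at -0.95. The part of the neighbourhood in the level of a gene was not tested.

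The 16 genes with an E2F-type word and the 24 without one were set side by side. Of the 16, 11 were lower in CTC (median log2 fold change -0.19), and 3 of them (Lig1, Pold1 and Uhrf1) did not overlap between groups. Of the 24, 18 were lower, with a median of -0.17, and 1 (E2f1) did not overlap. Of all genes tested, 6.16% lay below in this way. The other 3 such replication genes (Gins4, Rfc2 and Ccne2) have no window in the table used and are in neither count. The E2f1 window (chromosome 2, 154569377 to 154569676) lies inside the gene as deposited, which begins at 154569892 on the minus strand. Bases before that point were not searched, so E2f1 stands among the 24 only for the window used. Both groups of genes were measured in the same libraries, and their difference was not tested.

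Other genes of the pathway and of the cell cycle were counted in the same way. None of the genes in these lists passed the test in edgeR. Of 35 further fork and origin genes, 18 were lower in CTC (median log2 fold change -0.01). At the ends were Pold3, an accessory subunit of polymerase delta, at 29.9 ± 6.08 CPM in CTC against 52.1 ± 17.3 CPM in PT (SD, n = 3 each; log2 fold change -0.80, SE 0.34), and Mcm9, which acts in DNA repair, at 11.8 ± 2.32 CPM in CTC against 7.97 ± 2.06 CPM in PT (log2 fold change 0.56, SE 0.37). Of 16 further genes of nucleotide and histone supply, 6 were lower, with a median of 0.25. Shmt1, an enzyme of folate metabolism, was at 50.1, 108 and 107 CPM in CTC, against 145, 127 and 181 CPM in PT, with no overlap. Rrm2b, the p53-induced subunit of ribonucleotide reductase, was at 19.2, 6.63 and 7.94 CPM in CTC, against 5.33, 5.62 and 5.44 CPM in PT, also with no overlap and with CTC 1 far above the rest.

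Of 18 further G1/S regulators, 6 were lower in CTC (median log2 fold change 0.17). E2f7, a repressive E2F that acts late in S phase, was at 92.9, 71.6 and 33.0 CPM in CTC, against 27.6, 31.2 and 33.0 CPM in PT. CTC 1 and CTC 2 stood above the PT range and CTC 3 did not, and the log2 fold change was 1.10 (SE 0.39, unadjusted p 0.0227, adjusted p 0.726 in edgeR). Tfdp1, the DNA-binding partner of E2F factors, was at 434, 489.6 and 676 CPM in CTC, against 564, 622 and 1210.3 CPM in PT, with PT 3 far above the rest. Of 28 mitosis and spindle genes, 12 were lower, with a median of 0.09. Foxm1, a factor that drives mitotic genes, had a log2 fold change of -0.46 (SE 0.26) and Ndc80, of the kinetochore, one of 0.54 (SE 0.39). In mouse 3, 47 of the 48 replication genes were lower in CTC. So were 26 of the 35 further fork and origin genes, 13 of the 16 of nucleotide and histone supply, 13 of the 18 G1/S regulators and 16 of the 28 mitosis genes. In mouse 1, where 28 of the 48 were lower, these counts were 12, 6, 4 and 12 in the same order. In mouse 2, where 18 of the 48 were lower, they were 21, 5, 9 and 11.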

How the data were processed

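Raw read counts of 54532 Ensembl genes in 6 libraries, as deposited by the authors, were used with the deposited gene length in bases, another value of that table. The submitters' processing notes name HISAT2 and, as builds, GRCm38 and mm10. Not given in the sources used here are the aligner version, the counter and its strand setting, and the annotation release. Per the labels' protocols, total RNA went into an mRNA library kit.

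The 48 genes, the other lists and the tests were chosen with earlier results of these data known. All tests were fitted on the whole table with edgeR 4.0.16 in R 4.3.3 (TMM scaling, filterByExpr by group, quasi-likelihood test, Benjamini-Hochberg adjustment over the 13874 genes that passed). Log2 fold changes are CTC over PT, and log2 CPM used a prior count of 2. DESeq2 1.42.0 and limma 3.58.1 were alternatives, together with other scalings and filters, protein-coding genes only, leaving out libraries or matched pairs, and, added after seeing the data, a lowess correction (span 0.4) on the median GC content of GENCODE M21 transcripts. The scripts were tested on simulated counts.

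The labels match CTC and PT libraries by mouse, so the numbers pair the samples, and a fit with the mouse as a block was an alternative. After centring each group, libraries of 1 mouse correlated across genes at -0.015, 0.157 and 0.298. No libraries agreed within sampling noise (chi-square per degree of freedom at least 90.4). A count of 3 was worth 0.107 to 0.129 CPM, which covers counting error only. P-values set the difference between groups against the spread between 3 libraries a group. In edgeR the estimate of that spread for a gene also draws on the other genes, and the main fit did not use the pairs.

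Genes were given in full by rule: the genes called by a tool, those without overlap between groups, the 3 largest fold changes each way, the highest and lowest FPKM, and the largest change each way in the other lists among genes with a mean of at least 5 CPM. Other genes were described after their values were seen. Symbols were matched to RefSeq promoter windows of GRCm38.p6. Pole, Gins4, Gins1, Prim2, Rfc2, Gins2, Mcm4 and Ccne2 were not analysed there. A planned comparison of MCM protein sequences was not analysed here.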

Additional observations from a re-analysis of the deposited data

How the results depend on the processing

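None of the 48 genes was called in any of 20 alternatives, and the lowest adjusted p was 0.329 (Lig1, DESeq2 with a replicate block). Over all genes, 87 were called by DESeq2, 253 by DESeq2 with a replicate block and 199 with no filter on low counts. With the replicate block in edgeR, which pairs libraries by mouse, 0 genes were called and 34 of the 48 were lower in CTC. The pairing thus changed no call in edgeR. In DESeq2 it changed the count over all genes, with 0 of the 48 called. The count of 7 without overlap is the same with the block, and in limma-voom, by construction, since the scaled levels do not change. Leaving out libraries or matched pairs gave 7 to 21 of the 48 genes below PT without overlap (7.60% to 23.1% of all genes tested) and 0 to 10 above (7.97% to 25%). Those below were 19 without CTC 2, 13 without PT 1, 12 without PT 2, 10 without PT 3, 8 without CTC 3 and 7 without CTC 1. Without a pair they were 13 for pair 1 (27.1%, against 12.1% of all genes), 21 for pair 2 (43.8%, against 16.6%) and 11 for pair 3 (22.9%, against 23.1%). Those above were 5 without CTC 3, 4 without PT 3, 1 without PT 1 or pair 1, and 10 without pair 3 (20.8%, against 25%). The other settings gave 7 to 10 below and 0 above. The count of lower genes ran from 27 to 38 and the median from -0.37 to -0.05 over all alternatives, with -0.24 after the GC correction and -0.25 with the block and that correction. Of the 48 genes, 25 kept their sign in all alternatives, and the other 23 had log2 fold changes of at most 0.34 in size. Among the genes given in full, E2f2 changed sign when libraries were left out (-0.12 to 0.61 without 1 library, down to -0.27 and up to 0.82 without a pair). In fits that leave 1 library or pair out, groups hold as few as 2 libraries. Each of the 48 genes had at least 256 counts per library.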

Other observations

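Upstream of the replication genes, D cyclins with CDK4 and CDK6 release E2F factors and CDK inhibitors hold the kinases back. Of 12 such genes 10 were tested, and 4 were lower in CTC. The genes in this paragraph other than Cdk6 and Cdkn1a were chosen after their values were seen. Ccnd1, cyclin D1, was at 747, 570.2 and 452 CPM in CTC, against 896, 929 and 1115 CPM in PT. All CTC libraries lay below all PT libraries, and the log2 fold change was -0.73 (SE 0.29, unadjusted p 0.0361, adjusted p 0.726 in edgeR). The inhibitors Cdkn1b and Cdkn2d did not overlap either, at 51.2, 58.4 and 68.1 CPM and 22.7, 26.1 and 18.3 CPM in CTC, against 77.5, 145 and 92.2 CPM and 55.6, 34.6 and 32.0 CPM in PT. These 3 genes were 30% of the 10 tested, against 6.16% of all genes tested. Both an activating cyclin and inhibitors were thus among the lower genes. The other 6 were higher in CTC, among them Cdk4 (log2 fold change 0.56, SE 0.38) and the inhibitor Cdkn2b (0.84, SE 0.52), both with overlapping groups.

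Cdkn1a, the p53-induced inhibitor p21, was at 32.6, 17.9 and 15.96 CPM in CTC, against 19.2, 6.05 and 9.09 CPM in PT. It was higher in CTC in each mouse but PT 1 lay inside the CTC range, and the log2 fold change was 0.95 (SE 0.51, adjusted p 0.726 in edgeR). Cdk6 was at 153, 143 and 326 CPM in CTC, against 599.8, 207 and 393 CPM in PT, with a log2 fold change of -0.95 (SE 0.48), and CTC 3 lay above PT 2. None of these differences passed the test.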
